A study of Homo sapiens with 34 samples.

Results

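Genes that bind acyl-CoA esters and genes of the ABCD half-transporter family were examined as a group of 9 genes, which does not hold every gene of these families: *DBI*, *ACBD7*, *ACBD6*, *ACBD3*, *ACBD4*, *ACBD5*, *ABCD3*, *ABCD4* and *HSD17B10*. They were taken by symbol from 6 tables of gene expression, and all 9 were listed in every table, among 13307 genes listed in all 6 tables and 17587 listed in any of them. *ACBD7* and *HSD17B10* were selected on the same knockdown and palbociclib comparisons that are described here, and the other 7 were added as members of the gene families. The values of the 9 genes are therefore a description, with no test.

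The data are RNA-sequencing of B-cell precursor acute lymphoblastic leukemia (B-ALL) cell lines, made to compare loss of cyclin D3 (*CCND3*) with inhibition of the kinases it activates, CDK4 and CDK6. The 3 lines were NALM-6, which carries ETV6-PDGFRB, RS4;11, which carries MLL-AF4, and BV-173, which carries BCR-ABL. In each line, cells were transduced with a lentivirus that expressed a red fluorescent protein and either an shRNA against *CCND3* (shCCND3) or a scrambled shRNA, and transduced cells were collected on day 4. Other cells of each line received palbociclib, a CDK4/6 kinase inhibitor, at 1 µM, or the solvent DMSO, for 3 days. The 34 samples formed 12 groups of 3 samples, except for 2 groups of 2 samples, NALM-6 shCCND3 and BV-173 DMSO. A single *CCND3* shRNA was used, so its effects on *CCND3* and on other transcripts cannot be told apart. The tables give 1 level per gene and group, the authors' normalized value over the samples of that group, so the spread between replicates and the depth of each sample are not given. The p-values that the authors computed from the replicates were not used, so no value below carries a replicate check. Each table pairs a treated group with its own control and was normalized separately from the others.

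Long-chain fatty acids are used by cells as esters of coenzyme A. These acyl-CoA esters are carried in the cytosol and at membranes by small proteins that share an acyl-CoA-binding domain, of which the product of *DBI* is the prototype. Transporters of the ABCD family bring very-long-chain, branched-chain and dicarboxylic acyl-CoA esters into peroxisomes, where beta-oxidation shortens them for the mitochondria. The name of the group covers most of its genes but not all. *HSD17B10* encodes a mitochondrial dehydrogenase of isoleucine and steroid metabolism that is also a subunit of mitochondrial ribonuclease P, and belongs to neither family. *ABCD4* encodes a lysosomal protein of cobalamin export, not a peroxisomal transporter, and *ACBD3* encodes a Golgi protein.

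The labelled cell type was checked against marker genes. All 14 B-cell precursor markers were listed in every group, and their levels, given in scaled units of which the shared genes total 1000000 in each group, summed to between 3419 scaled units in RS4;11 DMSO and 8999 scaled units in NALM-6 palbociclib. A level of at least 100 was reached by all 14 in the NALM-6 and BV-173 groups. In RS4;11 it was reached by 12 with each of scrambled shRNA, shCCND3 and DMSO, and by 11 with palbociclib. Markers of other cell types were listed only in part, and each sum covers the listed ones. Those of T and NK cells summed to at most 98.4 scaled units, in RS4;11 shCCND3, where 9 of 10 were listed and 96.7 came from *NKG7*, and the myeloid markers to at most 60.4 scaled units, in the same group, where 7 of 10 were listed. The erythroid and megakaryocytic markers reached at most 27.3 scaled units, with 4 of 9 listed, and the epithelial and fibroblast markers at most 12.5 scaled units, with 7 of 10 listed, again in RS4;11 shCCND3. The part of these levels in the values below was not tested. In bulk samples such as these, fewer cells of a type and less RNA per cell cannot be told apart.

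*CCND3*, the target of the shRNA, was lower in each line with shCCND3. Its level was 19499 with the scrambled shRNA and 4727 with shCCND3 in NALM-6, 16178 and 3353 in RS4;11, and 6619 and 2060 in BV-173. The transcript that remained was 24.2%, 20.7% and 31.1% of the scrambled control. With palbociclib, *CCND3* stood at 78.0%, 81.8% and 76.0% of DMSO in NALM-6, then RS4;11, then BV-173. The cell-cycle genes *MKI67*, *E2F1* and *CCNA2* were lower with both treatments in all 3 lines. *MKI67*, a marker of cycling cells, was at 34.9%, 24.6% and 52.7% of control with shCCND3 and at 13.1%, 0.700% and 17.1% with palbociclib in the same order. *E2F1*, a transcription factor of the G1/S transition, was at 42.5%, 21.5% and 65.0% with shCCND3 and at 18.1%, 5.99% and 31.0% with palbociclib. *CCNA2*, the cyclin of S phase and G2, was at 39.8%, 29.3% and 71.4% with shCCND3 and at 7.99%, 2.09% and 22.7% with palbociclib. For *MKI67*, *E2F1* and *CCNA2*, RS4;11 held the lowest remaining share and BV-173 the highest in each treatment, unlike for *CCND3* with palbociclib.

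*ACBD7*, *HSD17B10* and *DBI* showed the largest ratios among the 9 genes, and their promoters are given to show the sequence around their start sites. Promoter windows of 300 bases, 250 before and 50 after the start site, were found in RefSeq for all 9 genes on GRCh38.p14. The windows lie at chr10:15088727-15089026 on the minus strand, chrX:53434327-53434626 on the minus strand and chr2:119366727-119367026 on the plus strand, and capitals mark the letters CCAAT or, where the match is on the other strand, ATTGG.
ACBD7: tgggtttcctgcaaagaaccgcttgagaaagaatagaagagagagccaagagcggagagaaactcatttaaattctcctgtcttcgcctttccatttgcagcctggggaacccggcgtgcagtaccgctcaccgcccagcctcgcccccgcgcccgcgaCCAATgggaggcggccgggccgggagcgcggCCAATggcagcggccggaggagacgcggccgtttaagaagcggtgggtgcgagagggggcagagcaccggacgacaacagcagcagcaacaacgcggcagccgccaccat
HSD17B10: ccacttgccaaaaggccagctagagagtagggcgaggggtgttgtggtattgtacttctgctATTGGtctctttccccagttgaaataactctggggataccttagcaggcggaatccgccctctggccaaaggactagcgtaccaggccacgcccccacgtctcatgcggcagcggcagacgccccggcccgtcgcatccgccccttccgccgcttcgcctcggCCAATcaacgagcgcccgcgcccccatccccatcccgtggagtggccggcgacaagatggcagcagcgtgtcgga
DBI: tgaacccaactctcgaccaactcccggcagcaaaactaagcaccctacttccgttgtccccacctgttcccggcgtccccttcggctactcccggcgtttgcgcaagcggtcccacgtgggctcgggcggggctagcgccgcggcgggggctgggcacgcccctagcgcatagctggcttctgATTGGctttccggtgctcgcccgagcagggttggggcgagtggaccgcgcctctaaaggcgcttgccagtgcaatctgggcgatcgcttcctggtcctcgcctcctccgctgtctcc
The CCAAT box is in the windows of 3 of the 9 genes, a share near that of all promoters. *ACBD7* holds it at positions -91 and -60 from the start site, *HSD17B10* at -188 and -25, and *DBI* at -67, counted to the leftmost base. The other 6 genes of the group have no match to it in their windows. The letters CCAAT occur on either strand in 35.7% of 27305 promoters of this length, so nothing is read from these matches. TTTCCCGC and TTTGGCGC, words that E2F factors can bind, occur in 1.66% and 0.659% of all promoters. TTTGAA, the cell-cycle homology region, occurs in 15.4%, and GTAAACA, a word of forkhead factors, in 3.41%. None of these 4 words is in any of the 9 windows, which says only that these letters are not there.

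*ACBD7* (gene ID 414149) encodes a small acyl-CoA-binding protein closely related to the *DBI* product. It spans chr10:15075475-15088776 on the minus strand of hg38 and overlaps no other annotated gene. With shCCND3 its level was 312 against 977 with the scrambled shRNA in NALM-6, 81.7 against 247 in RS4;11, and 202 against 317 in BV-173. These values are 31.9%, 33.1% and 63.7% of control, or log2 ratios of -1.65, -1.60 and -0.65. *ACBD7* was thus lower with shCCND3 in every line, with the smallest difference in BV-173. With palbociclib its level was 661 against 728 with DMSO in NALM-6, 122 against 304 in RS4;11, and 211 against 312 in BV-173. The log2 ratios were -0.14, -1.32 and -0.57. NALM-6 was therefore the line in which the treatments differed most, by -1.51 on the log2 scale, against -0.28 in RS4;11 and -0.08 in BV-173. The NALM-6 controls differed too, at 53.6 scaled units with the scrambled shRNA and 37.6 with DMSO, and NALM-6 shCCND3 had 2 samples. The part of these in the -1.51 was not tested. The mean log2 ratio over lines was -1.30 ± 0.56 (SD, n = 3 lines) with shCCND3 and -0.67 ± 0.60 with palbociclib. The difference of the treatments averaged -0.62 ± 0.77 (SD, n = 3 lines), less than its spread between lines. In the NALM-6 knockdown table, 0.182% of all genes had a lower ratio than *ACBD7*, against 37.3% in the NALM-6 palbociclib table. These shares were 1.31% and 4.62% in RS4;11 and 3.52% and 12.4% in BV-173, where the treatments lay closer.

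*HSD17B10* (gene ID 3028) went the opposite way. It spans chrX:53431258-53434370 on the minus strand, and an annotated long noncoding RNA on the same strand shares 218 exon bases with it. With shCCND3 its level was 923 against 430 with the scrambled shRNA in NALM-6, 927 against 338 in RS4;11, and 1229 against 646 in BV-173. These are ratios of 2.15-fold, 2.75-fold and 1.90-fold, or log2 ratios of 1.10, 1.46 and 0.93, so the gene was higher in all 3 lines. With palbociclib its level was 1232 against 1061 with DMSO in NALM-6, 1381 against 1015 in RS4;11, and 1430 against 780 in BV-173. The log2 ratios were 0.22, 0.44 and 0.87, above 0 in every line, and only that of BV-173 passed 1.5-fold. The knockdown ratio exceeded the palbociclib ratio by 0.89 and 1.01 on the log2 scale in NALM-6 and RS4;11 but by 0.05 in BV-173. Over lines the mean was 1.16 ± 0.27 (SD, n = 3 lines) with shCCND3 and 0.51 ± 0.33 with palbociclib, and the difference averaged 0.65 ± 0.52, with BV-173 near 0.

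The controls of *HSD17B10* were far apart. Set across tables that were normalized separately, the level with the scrambled shRNA was 23.6, 17.8 and 33.4 scaled units in NALM-6, then RS4;11, then BV-173, while that with DMSO was 54.7, 51.6 and 40.6 scaled units. The shCCND3 levels, 51.5, 47.9 and 59.3 scaled units, lay near the DMSO levels in NALM-6 and RS4;11. The scrambled group was thus the lowest of the 4 groups in every line. DMSO exceeded scrambled by 2.32-fold in NALM-6 and 2.89-fold in RS4;11, and 1.03% and 0.331% of 13307 genes had a higher ratio of these controls. In BV-173 the ratio was 1.21, and 23.0% of genes were above it. The gene was selected on ratios over these same controls, so these shares are a description and nothing is read from them. No other gene of the group had such a ratio of controls, as their values ran from 0.684 for *DBI* to 1.52 for *ACBD4*, both in BV-173. The scrambled and DMSO groups differ in vector, cell sort and culture time, and the parts of these in the *HSD17B10* control levels cannot be told apart.

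**Figure D1:**
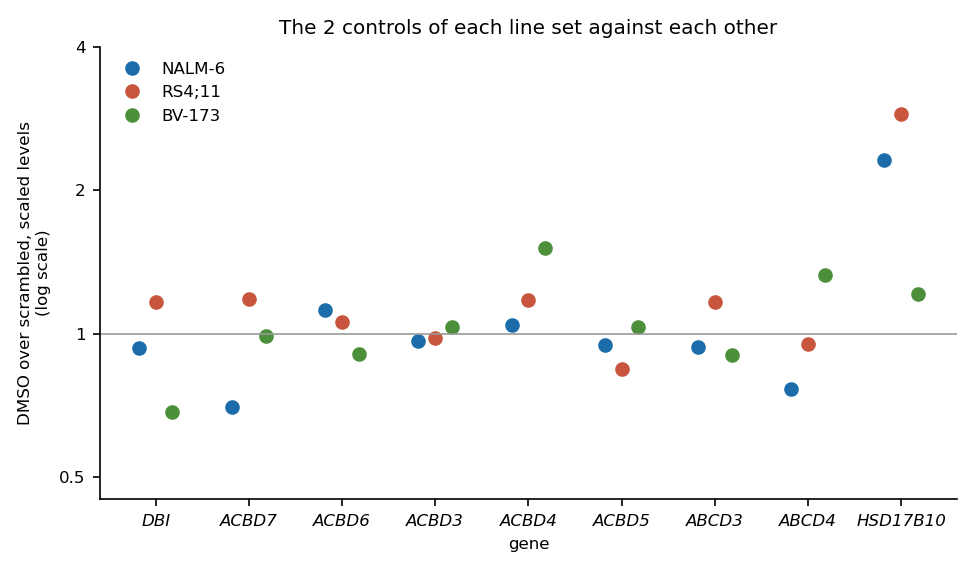
Ratio of the DMSO control to the scrambled control in each line, on a log axis, from levels scaled to a total of 1000000 over 13307 genes, with 1 point per line. *HSD17B10* in NALM-6 and RS4;11, at 2.32 and 2.89, stands above the other 8 genes, which lie between 0.684 and 1.52.

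*DBI* (gene ID 1622), the acyl-CoA-binding protein that is also known as the diazepam-binding inhibitor, differed by line. It spans chr2:119366924-119372550 on the plus strand, and the annotation holds 2 processed pseudogenes of it, *DBIP1* and *DBIP2*, whose reads the deposited levels may not separate. With shCCND3 its level was 1663 against 2131 with the scrambled shRNA in NALM-6, 2916 against 2972 in RS4;11, and 2212 against 1564 in BV-173. The log2 ratios were -0.36, -0.03 and 0.50, and none passed 1.5-fold. With palbociclib its level was 2095 against 2115 with DMSO in NALM-6, 4197 against 3595 in RS4;11, and 3053 against 1066 in BV-173. The log2 ratios were -0.01, 0.22 and 1.52, and the BV-173 ratio of 2.86-fold was the highest of the 9 genes in any of the 6 comparisons. BV-173 had the highest ratio and NALM-6 the lowest in both treatments. BV-173 DMSO, a group of 2 samples, held the lowest *DBI* level of the 12 groups, 55.4 scaled units against 81.0 in BV-173 scrambled.

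Apart from the marker sums, levels of different genes were compared only per length, as the scaled level divided by the gene length in kilobases. This scale is approximate because the tables were normalized separately. On this scale *DBI* stood above the other 5 acyl-CoA-binding genes in each group. It made up 51.7% of the summed level of the 6 genes in BV-173 DMSO, the lowest share, and 85.7% in RS4;11 palbociclib, the highest. In BV-173 its share was 78.5% with palbociclib and the sum was 299.9 scaled units per kilobase, against 166.0 with DMSO. *ACBD7* contributed 6.00% of the sum in NALM-6 scrambled and 2.35% in NALM-6 shCCND3, and between 0.424% and 2.89% in the groups of the other 2 lines. In RS4;11 shCCND3, where *ACBD7* was at its lowest share, *DBI* made up 79.7% of the sum.

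**Figure D2:**
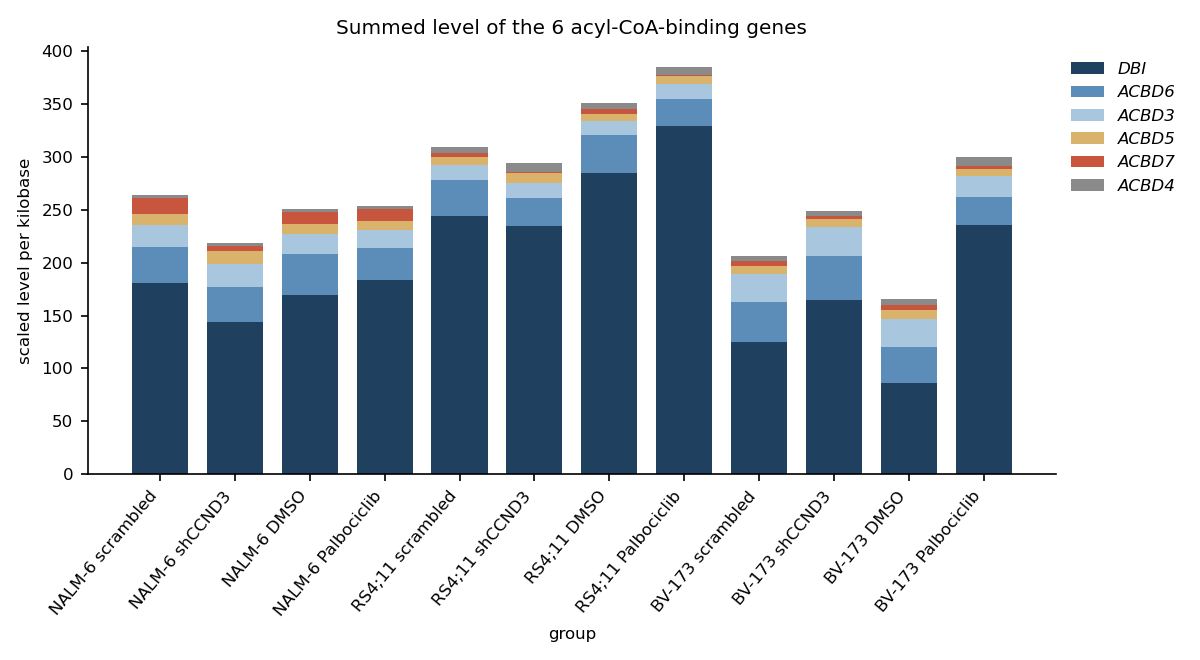
Bars give the scaled level per kilobase of the 6 acyl-CoA-binding genes, stacked, in each of the 12 groups. *DBI* makes up between 51.7% and 85.7% of each bar, and the BV-173 bars reach 166.0 with DMSO and 299.9 with palbociclib.

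*ACBD6* encodes a protein of lipid acylation that binds acyl-CoA esters through the same domain and carries ankyrin repeats. Its level ran from 820 in RS4;11 palbociclib to 1392 in BV-173 shCCND3. With palbociclib it was 861 against 1204 in NALM-6, 820 against 1160 in RS4;11, and 855 against 1061 in BV-173. All 3 log2 ratios were below 0, at -0.48, -0.50 and -0.31, and none reached 1.5-fold. With shCCND3 the log2 ratios were -0.05, -0.35 and 0.25, on both sides of 0. *ACBD6* shares 1866 exon bases with *LHX4* on the opposite strand, whose level was at most 45.8 in any group.

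*ACBD3*, which recruits phosphatidylinositol 4-kinase beta to the Golgi, had log2 ratios of 0.04, 0.09 and 0.16 with shCCND3 and of -0.32, 0.02 and -0.38 with palbociclib. Its control level was higher in BV-173 than in the other lines, at 94.1 and 97.3 scaled units against 47.4 to 72.4 elsewhere. *PI4KB*, the kinase it recruits, had log2 ratios between 0.09 and 0.26 in the 6 comparisons, all above 0. *ACBD3* shares 192 exon bases with the antisense RNA *ACBD3-AS1*.

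*ACBD4* and *ACBD5* encode tail-anchored peroxisomal proteins that can tether peroxisomes to the endoplasmic reticulum through VAPA and VAPB. *ACBD4* was the lowest of the group by median control level per length, at 4.56 scaled units per kilobase. It was above its control in all 6 comparisons, with log2 ratios of 0.15, 0.73 and 0.38 with shCCND3 and 0.07, 0.18 and 0.56 with palbociclib. Its level of 345 against 207 in RS4;11 shCCND3 passed 1.5-fold. *PLCD3*, on the opposite strand, shares 124 exon bases with *ACBD4* and had log2 ratios of 0.22, 0.95 and 0.23 with shCCND3 and 0.07, 0.85 and 0.68 with palbociclib, and without strand the reads of such genes cannot be told apart. *ACBD5* stayed within 1.5-fold throughout, at 0.27, 0.25 and -0.06 with shCCND3 and -0.23, 0.18 and -0.20 with palbociclib. It shares 327 exon bases with *MASTL*, a mitotic kinase gene on the opposite strand whose log2 ratios ran from -3.14 to -0.64, so the part of *MASTL* reads in the *ACBD5* values is unknown. *VAPA* had log2 ratios of -0.41, -0.32 and -0.31 with palbociclib, and *VAPB* of 0.06, -0.07 and -0.36. With shCCND3 the ratios of *VAPA* and *VAPB* lay between -0.19 and 0.13. *LHX4*, *PLCD3* and *MASTL* were chosen after their values were seen, for their overlap.

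*ABCD3*, the peroxisomal transporter of branched-chain and dicarboxylic acyl-CoA esters, was lower in every comparison. With shCCND3 its level was 819 against 1045 with the scrambled shRNA in NALM-6, 478 against 684 in RS4;11, and 713 against 921 in BV-173. With palbociclib it was 621 against 1045 with DMSO, 537 against 831, and 639 against 829 in the same order. The log2 ratios were -0.35, -0.52 and -0.37 with shCCND3 and -0.75, -0.63 and -0.38 with palbociclib, and those of NALM-6 and RS4;11 palbociclib passed 1.5-fold. No line thus had a treated level at or above its control, and the mean over lines was -0.41 ± 0.09 (SD, n = 3 lines) with shCCND3 and -0.59 ± 0.19 with palbociclib. *ABCD4* went the other way with palbociclib, at 880 against 657, 997 against 796, and 915 against 777, or log2 ratios of 0.42, 0.32 and 0.24. With shCCND3 its ratios were 0.07, 0.19 and -0.19. A long noncoding RNA on the same strand shares 624 exon bases with *ABCD4*. *LMBRD1*, which encodes the lysosomal partner of ABCD4 in cobalamin export, had log2 ratios of 0.02, 0.17 and -0.47 with palbociclib and of 0.17, 0.18 and 0.02 with shCCND3.

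**Figure D3:**
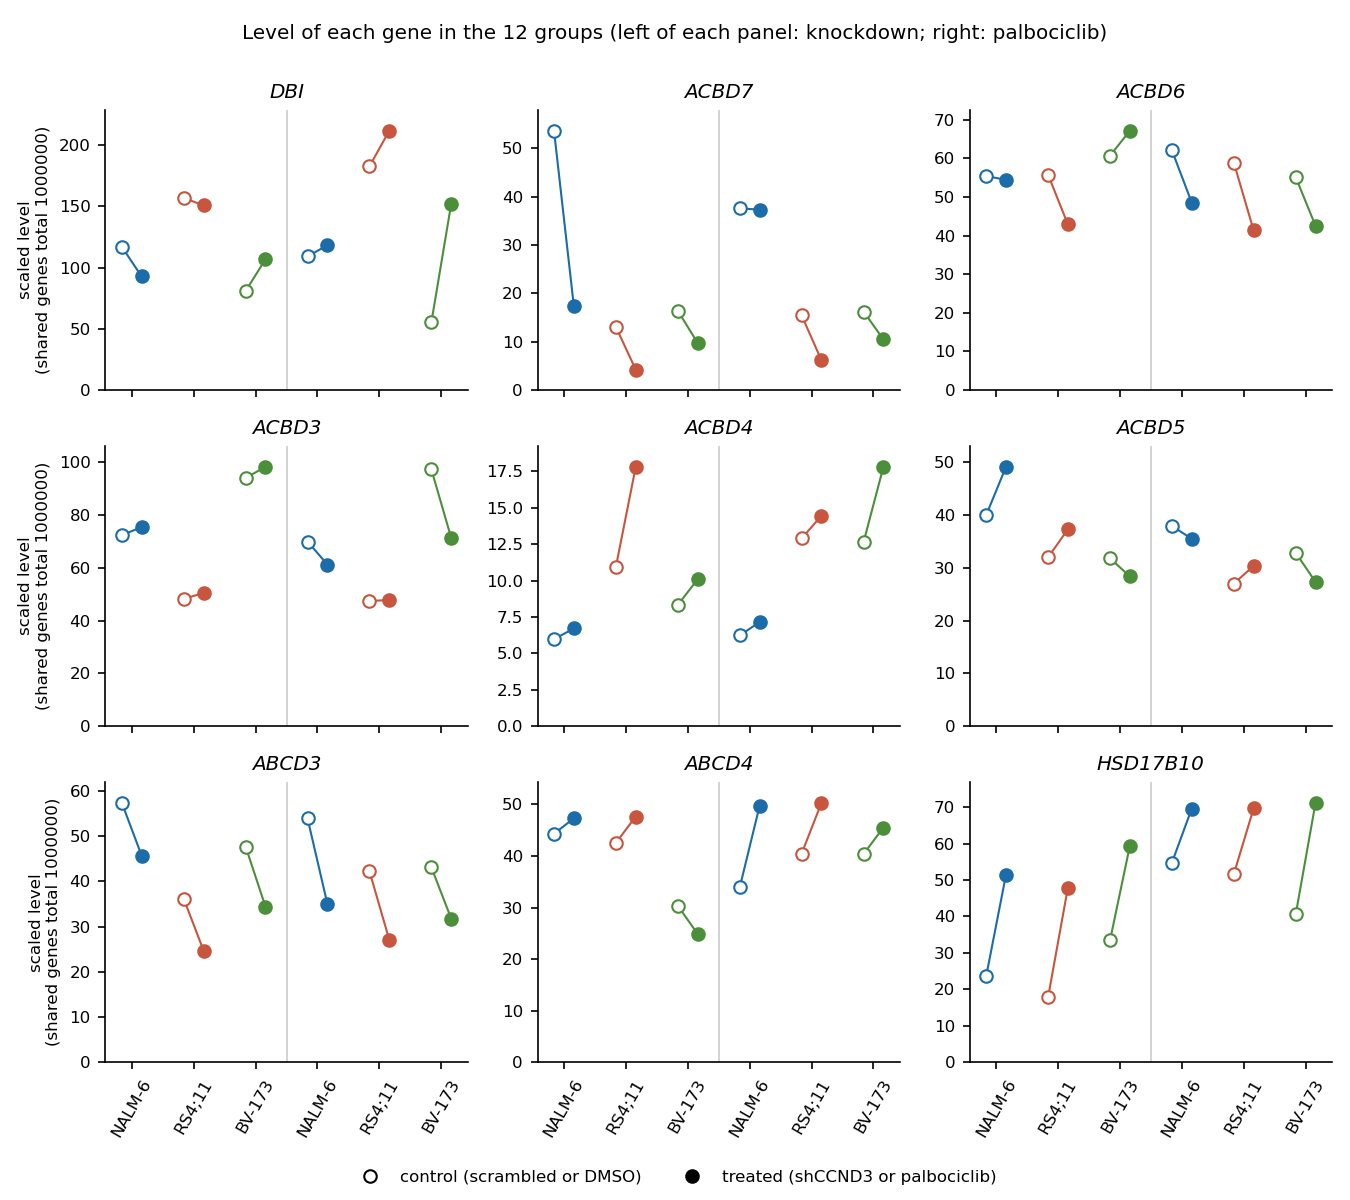
Scaled level of each of the 9 genes, with each control as an open circle joined to its treated group as a filled circle, for knockdown on the left and palbociclib on the right of each panel. All 6 joining lines slope down for *ACBD7* and *ABCD3* and up for *HSD17B10* and *ACBD4*, and that of *DBI* in BV-173 palbociclib runs from 55.4 to 151.9. The line of *ACBD7* in NALM-6 palbociclib is nearly flat, from 37.6 to 37.3. Slopes of scaled levels can differ a little from the ratios within a table, as for *DBI* in NALM-6 palbociclib, which runs from 109.1 to 118.3.

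Counted against 1.5-fold, the number of the 9 genes past the ratio was small in each comparison. With shCCND3 in NALM-6, 1 gene was higher (*HSD17B10*) and 1 lower (*ACBD7*), where 7.82% and 8.47% of all listed genes were higher and lower by as much. In RS4;11, 2 were higher (*HSD17B10* and *ACBD4*) and 1 lower (*ACBD7*), beside 9.73% and 9.72% of all genes. In BV-173, 1 was higher (*HSD17B10*) and 1 lower (*ACBD7*), beside 3.32% and 4.78%. *HSD17B10* and *ACBD7* were thus the highest and the lowest of the 9 in each knockdown comparison, and both had been selected on these comparisons. With palbociclib in NALM-6, 0 were higher and 1 was lower (*ABCD3*), beside 21.4% and 14.9% of all genes. In RS4;11, 0 were higher and 2 lower (*ABCD3* and *ACBD7*), beside 16.7% and 15% of all genes. In BV-173, 2 were higher (*DBI* and *HSD17B10*) and 0 lower, beside 13.6% and 11.9%. Nothing is read from these counts, since the comparisons also chose the genes. The median log2 ratio of the 9 genes lay between -0.20 and 0.18, and that of all genes between -0.01 and 0.06.

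**Figure D4:**
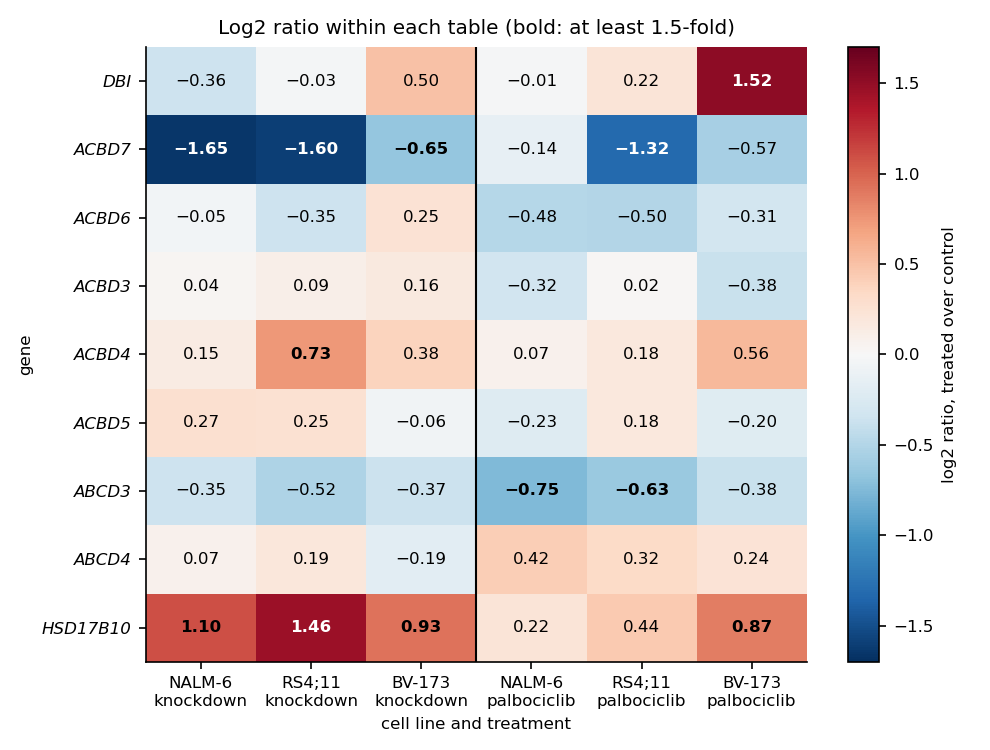
Log2 ratio of treated over control for the 9 genes (rows) in the 6 comparisons (columns), red above and blue below 0, with bold values at 1.5-fold or more. *ACBD7* is below 0 in each column, down to -1.65, and *HSD17B10* above 0 in each, up to 1.46.

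Among the lines, the controls of *ACBD7* differed most. Set across separately normalized tables, they were 53.6 and 37.6 scaled units in NALM-6 with the scrambled shRNA and DMSO, 13.0 and 15.4 in RS4;11, and 16.4 and 16.2 in BV-173. The lower NALM-6 control was 2.29-fold above the highest of the other lines. *DBI* controls were highest in RS4;11, at 157.0 and 182.7 scaled units, and lowest in BV-173, at 81.0 and 55.4. *ABCD3* and *ACBD5* were higher in NALM-6 than elsewhere by 1.13-fold and 1.15-fold, but by scaling on the median ratio these were 1.00-fold and 0.998-fold. *ABCD4*, *ACBD4*, *ACBD6* and *HSD17B10* had no line whose controls stood above those of both others.

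Per length and by the median over the 6 control groups, the order was *DBI* at 175.2 scaled units per kilobase, *HSD17B10* at 38.4, *ACBD6* at 35.5, *ACBD3* at 19.9, *ABCD3* at 12.9, *ABCD4* at 12.9, *ACBD5* at 8.31, *ACBD7* at 4.82 and *ACBD4* at 4.56. *DBI* did not overlap the next gene, since its lowest control, 85.9, was above the highest of *HSD17B10*, 57.0. The lowest control of *ACBD6*, 34.1, was likewise above the highest of *ACBD3*, 27.2. All other neighbours in this order overlapped in the range of their controls, so their ranks are not separated.

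The genes with ratios nearest to those of the 3 most changed genes were sought over the 6 log2 ratios, among 10185 genes with a level of at least 10 in all groups, by the root mean square difference. For *ACBD7* these were *TAF9B*, at a distance of 0.371, *MBOAT2* at 0.413 and *ICMT* at 0.417. *TAF9B*, a subunit of the general transcription machinery, had log2 ratios of -1.90, -1.42 and -0.63 with shCCND3 and -0.86, -1.60 and -0.94 with palbociclib. For *HSD17B10* they were *CERCAM* at 0.280, *CD37*, a tetraspanin of B cells, at 0.285, and *IFI30* at 0.300. For *DBI* they were *PPIB* at 0.227, *HSPA5* at 0.234 and *CETN2* at 0.245. *PPIB* and *HSPA5* encode a prolyl isomerase and the main HSP70 chaperone of the endoplasmic reticulum, and their BV-173 palbociclib ratios were 1.14 and 1.47 beside 1.52 for *DBI*. Ranked by the largest absolute difference, 1 of the 3 genes was shared for *ACBD7*, 2 for *HSD17B10* and 1 for *DBI*.

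Of the partners of these proteins, 7 are described whatever their values, here and above. *TRMT10C*, which encodes the methyltransferase subunit that forms mitochondrial ribonuclease P with HSD17B10, had log2 ratios of 0.23, 0.11 and 0.35 with shCCND3 and of 0.23, 0.57 and 0.58 with palbociclib. *PRORP*, the nuclease subunit, listed under its older symbol *KIAA0391*, had 0.03, 0.32 and 0.18 with shCCND3 and -0.35, -0.12 and 0.31 with palbociclib. *TRMT10C* was thus above its control in all 6 comparisons, and no ratio of either gene reached 1.5-fold. *TSPO*, the outer mitochondrial membrane protein that binds the *DBI* product, differed between lines. Its level with palbociclib was 194 against 444 in NALM-6, 3750 against 2292 in RS4;11 and 2505 against 1800 in BV-173, and with shCCND3 262 against 370, 2798 against 2309, and 2720 against 1763. *TSPO* was lower than control in NALM-6 and higher in RS4;11 and BV-173 in both treatments. Its log2 ratios were -1.20, 0.71 and 0.48 with palbociclib and -0.50, 0.28 and 0.63 with shCCND3, and the difference between lines was not tested, since each line gives 1 ratio.

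The other genes of the pathways were tested over the 3 lines with limma, with the log2 ratio of each line as 1 observation, on all 13307 genes and at a Benjamini-Hochberg adjusted p under 0.1 with a mean of at least 1.5-fold. The test called 1.77% of all genes higher and 3.84% lower with shCCND3, and 7.93% higher and 9.24% lower with palbociclib. For the difference of the treatments within a line, 0.353% of genes had a higher and 0.173% a lower ratio with shCCND3 than with palbociclib. These 70 genes became 937 and 854 with level filters of 10 and 100 and 1035 with a variance trend, so the size of this count depends on the processing. Of 163 tested genes in 6 lists, 1 was higher and 1 lower with shCCND3, and 8 were higher and 4 lower with palbociclib. For the difference, 0 of the 163 genes passed. An unadjusted p under 0.05 by limma was found for 26 of them, beside 2769 of all 13307 genes, or 20.8%. The counts changed when a line was left out, which also leaves the test 2 ratios per gene. Without NALM-6 no gene was called in any of these tests. Without RS4;11 the count was 0 for shCCND3 and 878 for palbociclib, and without BV-173 it was 911 and 843, against 747 and 2284 with all 3 lines. None of the 14 calls in the lists held without NALM-6 or without RS4;11, and 1 held without BV-173. The ratios behind each of these calls had the same sign in all 3 lines, so a mean over 2 lines could not change sign. The mean of *IVD* with palbociclib was 0.96, 0.88 and 1.02 without NALM-6, then RS4;11, then BV-173, against 0.95. That of *PEX16* with shCCND3 was 0.70, 0.49 and 0.58, against 0.59.

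The list of peroxisomal import and beta-oxidation had 31 tested genes. With palbociclib 4 rose and 2 fell, or 12.9% and 6.45% beside 7.93% and 9.24% of all genes, and the median log2 ratio was 0.19 against 0.04 over all genes. *ACAA1*, the thiolase that ends each round of peroxisomal beta-oxidation, had log2 ratios of 0.87, 0.87 and 1.32 in NALM-6, then RS4;11, then BV-173, a mean of 1.02 ± 0.26 (SD over lines, limma adjusted p = 0.0461). *DECR2*, the reductase for unsaturated chains, had a mean of 0.76 ± 0.19 (limma adjusted p = 0.0589), higher in 3 of 3 lines. The 2 others, *SLC27A4* at 0.72 and *CAT* at 0.69, are named after their values were seen. *SLC27A4* encodes a fatty acid transport protein with acyl-CoA synthetase activity, and *CAT* the catalase that removes hydrogen peroxide in peroxisomes. *FAR2* and *GNPAT*, genes of ether lipid synthesis, fell, with means of -0.86 ± 0.41 (limma adjusted p = 0.0737) and -0.63 ± 0.16 (limma adjusted p = 0.0758), lower in 3 of 3 lines. With shCCND3, 0 of the 31 genes passed, 9 had an unadjusted p under 0.05 by limma, or 29.0% beside 21.8% of all genes, and the median was 0.10 against 0.00 over all genes. *CAT* with shCCND3 and *ACOX3* with palbociclib met the adjusted p, at 0.0975 and 0.0910, but not the fold, at 1.47-fold and 1.44-fold.

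In the list of mitochondrial acyl-CoA oxidation, 4 of 36 genes rose and 1 fell with palbociclib, or 11.1% and 2.78% beside 7.93% and 9.24% of all genes, with a median log2 ratio of 0.21. *ECHS1*, the short-chain enoyl-CoA hydratase, had log2 ratios of 0.44, 1.18 and 1.31, a mean of 0.98 ± 0.47 (limma adjusted p = 0.0703). *IVD*, the dehydrogenase of leucine breakdown, had 0.94, 1.10 and 0.82, a mean of 0.95 ± 0.14 (limma adjusted p = 0.0433). *ACADSB* at 0.77 and *BCKDHB* at 0.64, named after their values were seen, act in isoleucine and branched-chain keto acid breakdown, the former on the pathway in which HSD17B10 follows. *ECI1*, an isomerase of unsaturated acyl-CoA esters, fell, with a mean of -0.74 ± 0.19 (limma adjusted p = 0.0611). *ACAD8* met the adjusted p with palbociclib, at 0.0948, but not the fold, at 1.47-fold. With shCCND3, 0 of 36 genes passed, 6 had an unadjusted p under 0.05 by limma, or 16.7% beside 21.8% of all genes, and the median was 0.12.

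**Figure D5:**
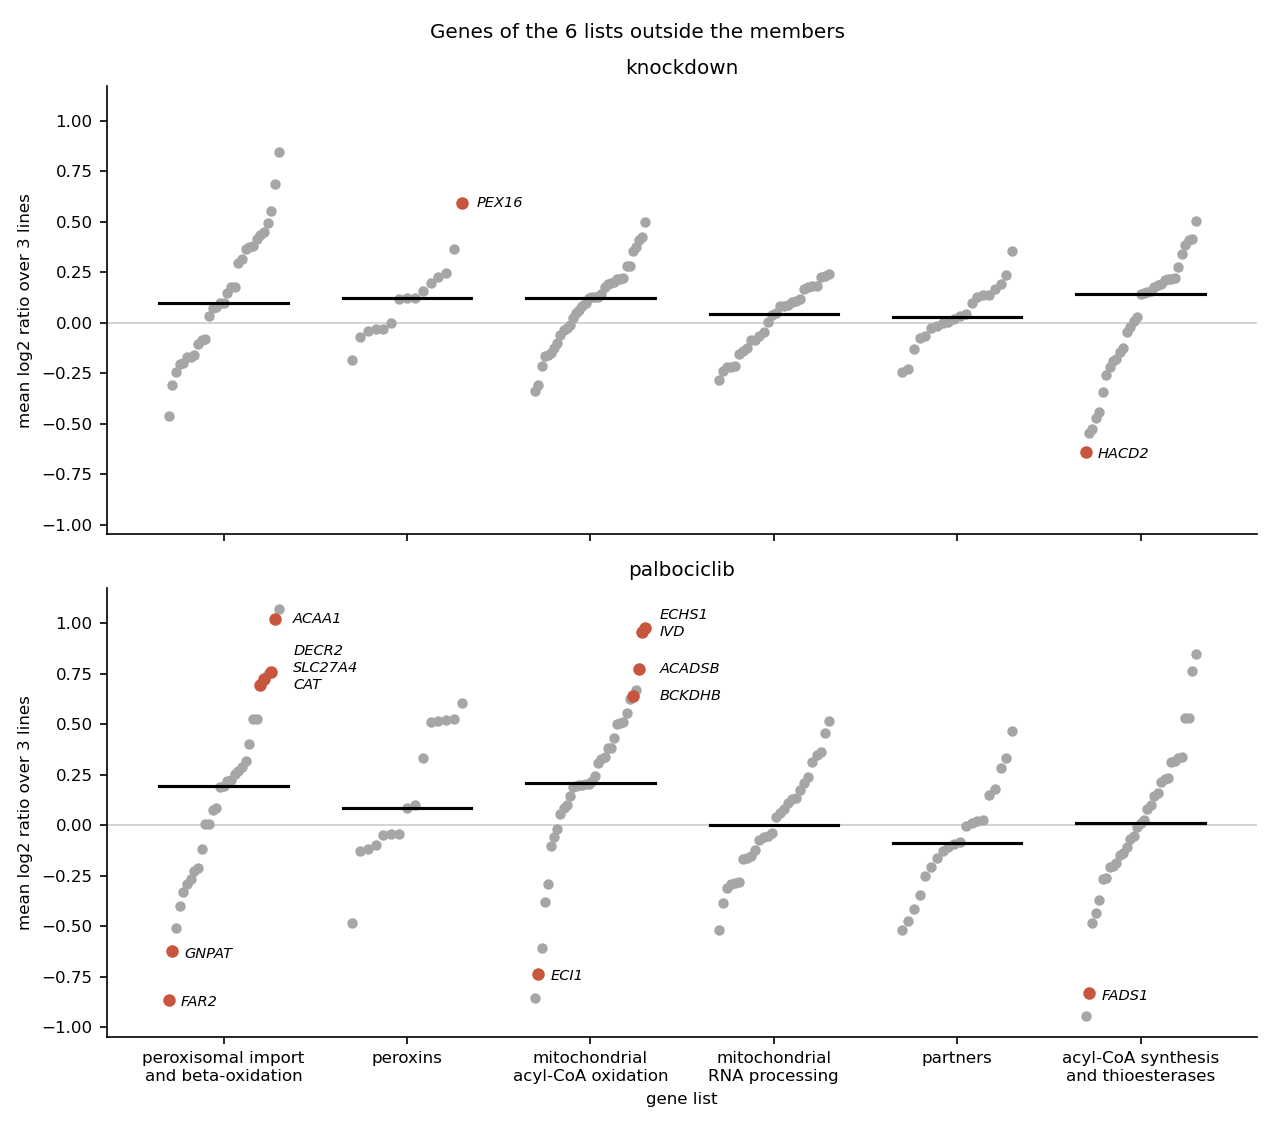
Mean log2 ratio over the 3 lines of each tested gene of the 6 lists, for shCCND3 (top) and palbociclib (bottom); red points passed limma at an adjusted p under 0.1 and 1.5-fold, and black bars are list medians. The palbociclib panel holds 8 red points above 0 and 4 below, the shCCND3 panel 1 and 1.

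The remaining lists held few calls, and over all genes 21.8% had an unadjusted p under 0.05 with shCCND3 and 30.6% with palbociclib. Of 15 peroxins, the assembly factors of peroxisomes, *PEX16* rose with shCCND3, by 0.59 ± 0.21 (limma adjusted p = 0.0962), and 0 passed with palbociclib, where 5 had an unadjusted p under 0.05 by limma. Of the latter, *PEX10* and *PEX5* met the adjusted p, at 0.0973 and 0.0999, but not the fold, at 1.44-fold and 1.43-fold. Of 33 genes of acyl-CoA synthesis and hydrolysis, *HACD2*, a dehydratase of very-long-chain elongation, fell with shCCND3, with a mean of -0.64 ± 0.24 (limma adjusted p = 0.0903), and *FADS1*, the delta-5 desaturase, fell with palbociclib, with a mean of -0.83 ± 0.32 (limma adjusted p = 0.0646). Each of these 3 genes moved in 1 direction in 3 of 3 lines. The calls of *PEX16* and *HACD2* were lost with a pseudocount of 10, at adjusted p-values of 0.124 and 0.125, as were all 747 calls with shCCND3. Of 28 genes of mitochondrial RNA processing, which act beside HSD17B10, 0 passed in either treatment, and 0 and 3 had an unadjusted p under 0.05 by limma with shCCND3 and palbociclib. Their median log2 ratios were 0.04 and 0.00. Of 20 partners of the acyl-CoA-binding proteins and ABCD4, 0 passed in either treatment, with 0 and 3 at an unadjusted p under 0.05 by limma and medians of 0.03 and -0.09. *MOSPD2* met the adjusted p with palbociclib, at 0.0928, but not the fold, with log2 ratios of -0.55, -0.46 and -0.55. *ACOX3*, *ACAD8*, *PEX10*, *PEX5* and *MOSPD2* are named after their values were seen.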

How the data were processed

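RNA-sequencing of 34 samples in 12 groups was analysed, with groups taken from the labelled line and treatment. Per the submitters' notes, reads were filtered with SOAPnuke, mapped with Bowtie2 to hg38, quantified with RSEM and compared with DESeq2. The authors deposited 6 tables, each with a signal per gene for a treated group and its control, which is 1 normalized level per group, not per length, and with a gene length in bases. The tables also hold the authors' own log2 fold change, p-value, adjusted p and direction, which were not used. Every value column was mapped to its group. No level was 0 and no pseudocount was used. In every comparison the SD of the log2 ratio was smaller at mean levels under 10 than at 10 to 100. In BV-173 knockdown it was 0.236 against 0.462, and in NALM-6 knockdown 0.319 against 0.648. What lies behind this was not tested, and genes at low levels are part of the shares over all genes. The design had foreseen 1 level per group, so no test on samples was run, and depth per sample is unknown.

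Log2 ratios of treated over control were taken within a table, and 1.5-fold was the ratio counted. The moderated one-sample test of limma 3.58.1 (R 4.3.3) was run across the 13307 shared genes on the ratios of the 3 lines. Benjamini-Hochberg adjustment was used. The test treats the lines as repeats, so its p-values measure the spread between lines. It was also run on simulated data, with planted shifts larger than the means of the called list genes. That run does not cover effects of their size. Level filters of 10 and 100, pseudocounts of 1 and 10, centring, a lower fold and a fold of 2, an adjusted p of 0.05, a variance trend, leaving out each line, and other scalings were tried. Python 3.11.15, numpy 2.4.6 and pandas 2.3.3 were used. Positions and overlaps are from GENCODE 44 on hg38, and promoters from RefSeq on GRCh38.p14.

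Genes were named by a rule: the 9 genes, *CCND3*, 3 cell-cycle genes, up to 2 called genes per direction, list and treatment, 7 partners, and the 3 genes nearest to each of 3 genes. Others are marked as chosen after their values were seen. The genes and lists were chosen with earlier results of these data known. The 6 lists held 176 genes, of which 13 were not in all 6 tables. A further 2 genes of the lists are not reported here and were left out of the list counts.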

Additional observations from a re-analysis of the deposited data

How the results depend on the processing

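No paired analysis was possible because the columns hold 1 value per group and carry no replicate numbers. Pseudocounts of 1 and 10 and centring on the median of all genes moved no log2 ratio of the 9 genes by more than 0.11, less than 1 SD over lines in all 162 recomputed values, and no called ratio changed sign.

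The count of the 9 genes past the ratio depended on the fold, and in BV-173 palbociclib also on centring, with which it was 3 in place of 2, as *ACBD7* passed 1.5-fold lower. At the alternative fold below 1.5 it was 4, 5 and 5 with shCCND3 in NALM-6, then RS4;11, then BV-173, in place of 2, 3 and 2, and 3, 5 and 6 with palbociclib, in place of 1, 2 and 2. At 2-fold it was 2, 2 and 0 with shCCND3, and 0, 1 and 1 with palbociclib.

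The limma counts were fragile. For shCCND3, 747 genes became 0 with a pseudocount of 10, 0 at an adjusted p of 0.05, 305 at 2-fold, and between 0 and 911 when leaving out a line. For palbociclib, 2284 became 836 at an adjusted p of 0.05, 1124 at 2-fold, and between 0 and 878 when leaving out a line. For the difference, 70 became 937 and 854 with level filters of 10 and 100, 332 with a pseudocount of 10, 1035 with a variance trend, 0 at an adjusted p of 0.05, and 0 when leaving out any line. The lowest adjusted p was 0.0742, 0.0376 and 0.0989 for these 3 tests, and 2900, 4074 and 2769 genes had an unadjusted p under 0.05. The cause of these shifts was not tested, and the filters also change how many genes share the adjustment. Of the recomputed list calls, 86 held and 68 lost the threshold. No direction changed, but the level filters, thresholds and variance trend keep each mean and could not change it. With the lower fold no call could be lost either. The share of all genes past 1.5-fold stayed within 1.5 times at levels of at least 100.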
